A study of Mus musculus with 6 samples.

Results

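The mitochondrial carrier family Slc25 was followed in pressure-loaded mouse cardiomyocytes that carry or lack the long non-coding RNA H19. Members were the genes whose name on the array begins with Slc25a, each read by its probe with the highest mean signal over the 6 arrays. The rule gave 42 genes with 50 probes on 18 chromosomes, 34 genes with 1 probe and 8 with 2. Of these, 36 gave a signal well above background on 3 or more arrays and were tested, among 21888 genes tested in all. The other 6 (Slc25a2, Slc25a15, Slc25a18, Slc25a21, Slc25a41 and Slc25a43) were too dim. Slc25a15, Slc25a21, Slc25a41 and Slc25a43 were not well above background on any array, Slc25a18 was so on 1 array of each genotype, and Slc25a2 on 2 wild-type arrays and no knockout array.

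Both groups were adult mice that had undergone transverse aortic constriction (TAC), an operation that narrows the aorta and makes the left ventricle pump against a raised pressure. One group was H19 KO and the other wild-type littermates, and RNA was taken 6 weeks after TAC from cardiomyocytes isolated by retrograde perfusion of the heart. Each genotype had 3 arrays, with replicate 1 of each on slide 1 and replicates 2 and 3 of each on slide 2. The strain, the sex of the mice and the extent of the H19 deletion are not given in the sources used here, unoperated hearts were not analysed here, and the labels do not say that each array held the RNA of 1 mouse, so the p-values below cover only the spread between these RNA samples, which may be technical.

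Slc25 proteins carry metabolites across the inner mitochondrial membrane, which charged molecules do not readily cross without a transporter. They share a fold of repeated membrane-spanning segments, and each repeat holds a signature that begins with proline and continues with an acidic and then a basic residue. In the heart the family exchanges ADP for ATP, brings in phosphate, passes reducing equivalents through the malate-aspartate shuttle and admits fatty acids as acylcarnitines. Family members also move cofactors, iron, nucleotides and amino acids, and a few lie in other membranes.

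The arrays read each carrier through a 60-base probe, and the letters of 4 are given to show what was measured. The 2 probes below belong to ADP/ATP carriers of different tissues, Slc25a4 of heart and muscle and Slc25a31 of the male germ line; the third reads the carnitine-acylcarnitine carrier Slc25a20. The last, from Slc25a26, which carries S-adenosylmethionine, was the 1 probe of the 50 in which codons of the carrier signature were found in an open reading frame, and capitals mark those 6 codons (proline, any residue, an acidic residue, any 2 residues, a basic residue). Sequences are from the deposited array files, 5′ to 3′ on the transcript.
Slc25a4, chr8:47292828-47292887, minus strand, mm9: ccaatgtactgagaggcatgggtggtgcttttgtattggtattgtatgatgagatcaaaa
Slc25a31, chr3:40528804-40528863, plus strand, mm9: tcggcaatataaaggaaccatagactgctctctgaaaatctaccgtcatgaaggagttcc
Slc25a20, chr9:108585399-108585458, plus strand, mm9: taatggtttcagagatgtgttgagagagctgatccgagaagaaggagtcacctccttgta
Slc25a26, chr6:94548392-94549185, plus strand, mm9: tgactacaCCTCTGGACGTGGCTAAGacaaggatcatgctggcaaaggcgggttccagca
The Slc25a26 probe covers 794 bases of the genome, so it crosses at least 1 intron, and 3 of the 50 probes do so. The others lie in 1 stretch of 60 genomic bases.

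Values are log2 signals relative to the 75th percentile of the same array, so a probe at 0 sits at that percentile. Signals of different probes depend on their letters as well as on the amount of RNA, so the order of the probes is an order of brightness and not of transcript number. H19 was read first as a check of the labels: its probe gave 1.69, 0.74 and 0.84 in wild type and was not well above background on any knockout array, which put it at least 32.3-fold higher in wild type (adjusted p = 0.0018, limma). No spot was saturated, and 48.8% to 58.6% of the 59305 spots per array were well above background. All 12 cardiomyocyte markers were tested and well above background on all arrays, with a median difference of -0.03. Fibroblast markers had a median difference of 0.61 and all 10 were higher in knockout, and all 10 macrophage markers were lower, with a median of -0.57, none past the threshold. The fibroblast direction differed by slide. With each gene centred on its mean, the fibroblast median on slide 1 was 0.32 in wild type and -0.45 in knockout. On slide 2 it was -0.40 and -0.82 in wild type and 1.29 and 0.06 in knockout. In RNA of a bulk fraction, fewer cells of a type and less RNA per cell cannot be told apart.

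None of the 36 carriers passed an adjusted p of 0.05 (limma, Benjamini-Hochberg over 21888 genes), where 8 of all genes (0.0365%) did. At an unadjusted p under 0.05 there was 1 carrier, Slc25a25, higher in knockout, against 1729 of all genes (7.9%), or 1.06% in that direction alone. Fitted differences, knockout minus wild type, lay above 0 for 19 carriers and below 0 for 17, against 39.9% and 60.1% of all genes. Their median was 0.0056 and that of all genes -0.05. They ran from -0.31 in Slc25a42 to 0.44 in Slc25a25, so the widest was 1.36-fold. With only genes well above background on all 6 arrays kept, 17 carriers lay above 0 and 17 below. Under that filter the median was -0.0014 in carriers and -0.02 in all genes. When arrays were instead centred on their median probe (median scaling), all 36 differences were above 0, as were 81.8% of all genes. The median was then 0.43 in carriers and 0.37 in all genes. Of the 36, 22 lay above the median of all genes. That count is the same under both scalings by construction, since the change of scaling shifts every gene's difference equally.

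For each carrier taken alone, the 95% interval gives the differences that the spread between these RNA samples allows under this scaling. The fit held no term for slide. The standard error of a carrier's difference had a median of 0.19 and ran from 0.15 to 0.38. The 95% interval lay inside a 2-fold change in either direction for 34 of the 36 carriers, against 72.3% of all genes. The exceptions were Slc25a31 (-0.61 to 1.20) and Slc25a24 (-0.57 to 1.11). Inside a 1.5-fold change it lay for 21 carriers, against 43.9% of all genes. A miss of the threshold therefore leaves room in every carrier for differences inside its interval. These intervals leave out the choice of scaling. Under median scaling Slc25a4 had 0.30 (SE 0.32), Slc25a3 0.48 (SE 0.33) and Slc25a25 0.86 (SE 0.33).

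**Figure D1:**
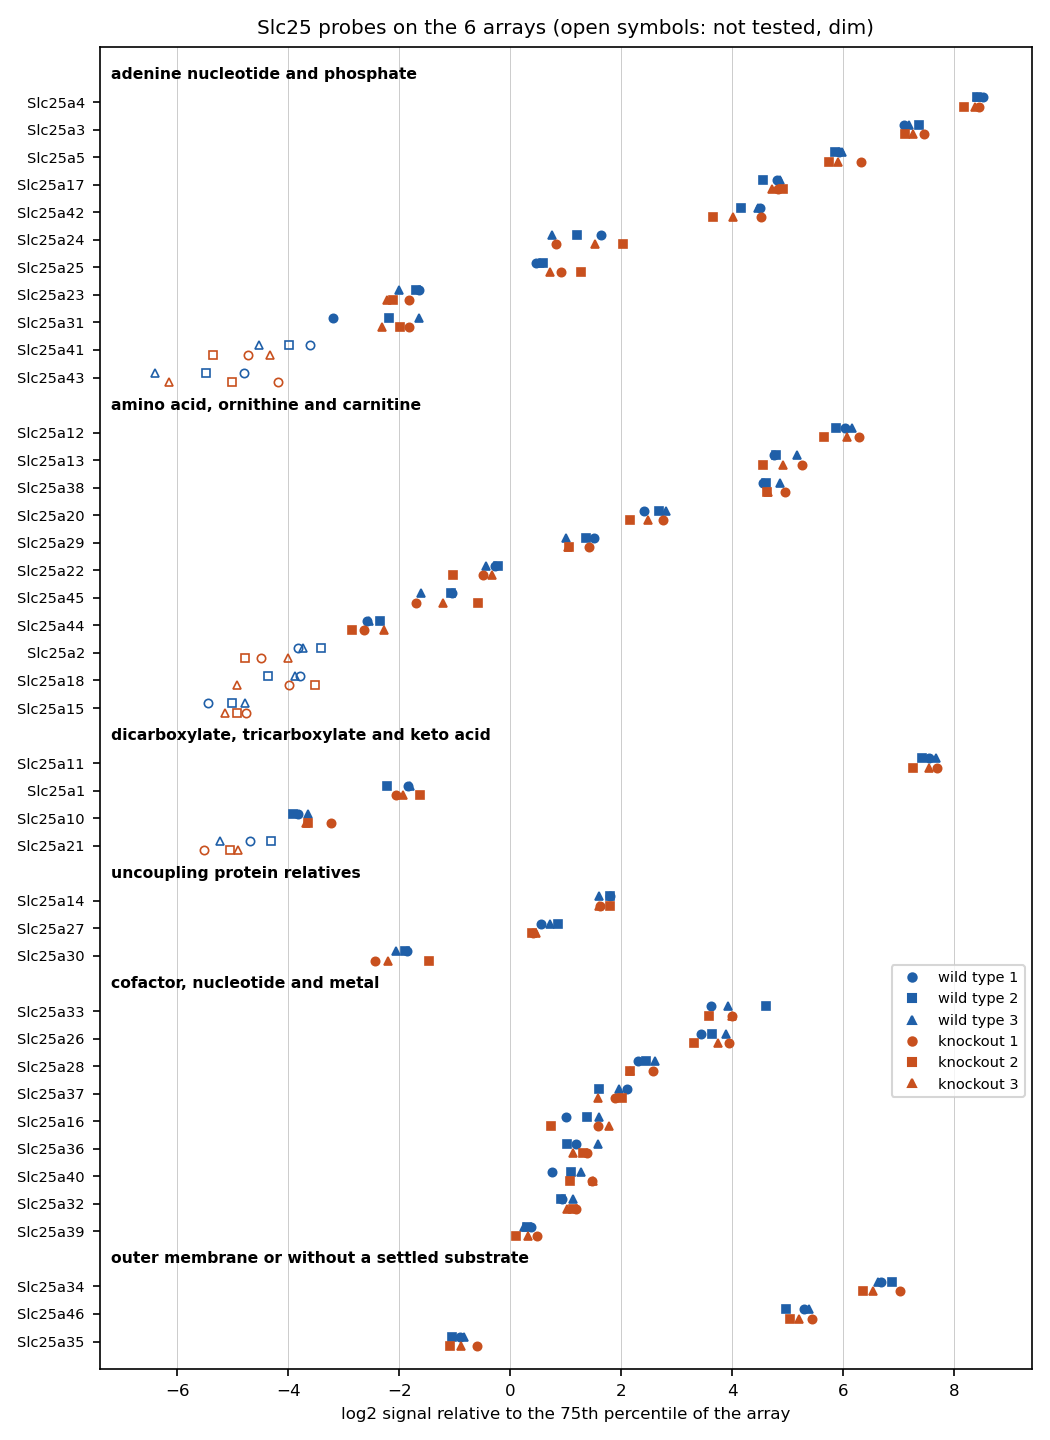
Log2 signal, scaled by the 75th percentile of each array (horizontal axis) for the probe of each of 41 Slc25 members, grouped by role; blue symbols are the 3 wild-type and orange symbols the 3 H19 knockout arrays, and open symbols mark the 6 members too dim to be tested. The ranges of the 2 genotypes overlap in 33 of the 35 tested members drawn. Slc25a25 and Slc25a27 are the 2 in which they do not.

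The ADP/ATP and phosphate carriers supply the ATP synthase and export its product. Slc25a4 (ANT1), the adenine nucleotide carrier of heart and skeletal muscle, gave 8.52, 8.42 and 8.41 in wild type and 8.44, 8.18 and 8.37 in knockout. The ranges overlapped, with knockout replicate 2 the lowest array, and the difference was -0.12 (SE 0.15, 95% interval -0.46 to 0.23, adjusted p = 0.999, limma, n = 3 each). Its probe was printed in 10 spots on every array, 9 or 10 of them usable, and the standard error of the mean over the spots of 1 array was 0.023 to 0.038 (log2), below the SD between arrays of a genotype (0.06 in wild type and 0.13 in knockout).

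Slc25a5 (ANT2), the adenine nucleotide carrier of many proliferating tissues, gave 5.92, 5.86 and 5.97 in wild type and 6.32, 5.74 and 5.91 in knockout. Knockout arrays held both its highest and its lowest value, and the difference was 0.07 (SE 0.19). The phosphate carrier Slc25a3 gave 7.09, 7.36 and 7.18 against 7.46, 7.11 and 7.25, a difference of 0.06 (SE 0.16). Its dimmer second probe gave -0.02 (SE 0.19), so neither probe placed it beyond its error on either side of 0.

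Slc25a31 (ANT4), known from the male germ line, was well above background on 2 of 3 wild-type and 3 of 3 knockout arrays. It gave -3.19, -2.18 and -1.65 in wild type and -1.83, -1.98 and -2.32 in knockout. Wild type alone covered the range of the knockout, and the difference of 0.29 had the widest error of the 36 (SE 0.38). Without wild-type replicate 1 it was -0.13.

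The ATP-Mg/phosphate carriers change the size of the adenine nucleotide pool in the matrix, and 3 of them (Slc25a23, Slc25a24 and Slc25a25) sense calcium through EF-hands. Slc25a25 gave 0.47, 0.59 and 0.53 in wild type and 0.91, 1.27 and 0.72 in knockout. Each knockout array lay above each wild-type array, in 1 of 36 carriers against 2.1% of all genes, and the knockout values were spread more widely (SD 0.28 against 0.06). The difference was 0.44 (SE 0.18, 95% interval 0.0099 to 0.87, 1.36-fold), with an adjusted p = 0.628 (limma, n = 3 each).

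Slc25a25 had the same size within each slide, 0.44 between the single arrays of slide 1 and 0.44 between the pairs of slide 2. Its second, dimmer probe gave -1.19, -0.76 and -0.93 in wild type and -0.47, -0.13 and -0.38 in knockout, again with no overlap, a difference of 0.63 (SE 0.18). Both probes read the same RNA samples, so they are not separate evidence of a difference between mice. Without knockout replicate 2 the difference at the brighter probe was 0.29.

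The other calcium-sensing members gave overlapping genotypes. Slc25a24 gave 1.63, 1.21 and 0.74 in wild type and 0.82, 2.04 and 1.53 in knockout, so both genotypes spread widely and overlapped; the difference was 0.27 (SE 0.36), -0.81 on slide 1 and 0.81 on slide 2. Its arrays fell in the same order as the median of 10 fibroblast markers, which read 0.32, -0.40 and -0.82 in wild type and -0.45, 1.29 and 0.06 in knockout once each gene was centred; endothelial markers had the same order but for an exchange of the 2 lowest arrays. The part of those cells in Slc25a24 was not tested. Slc25a23 gave -1.64, -1.70 and -2.01 against -1.82, -2.12 and -2.21, a difference of -0.26 (SE 0.18), which turned to 0.16 under median scaling.

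Marker lists of other cells ranged more widely than those of cardiomyocytes. Summed over 10 fibroblast markers, the level ran from 7.19 to 8.27 in wild type and from 7.76 to 9.02 in knockout, and over 10 macrophage and myeloid markers from 6.00 to 6.47 and from 5.32 to 6.42. Over 4 of 7 erythroid genes it ran from 4.35 to 8.10 and from 3.44 to 8.49, with Hbb-b1 and Slc4a1 among those not tested. Over the 12 cardiomyocyte markers the ranges were 11.6 to 11.7 and 11.5 to 11.7. Endothelial markers had a median difference of 0.07 and smooth muscle and pericyte markers one of 0.11, and their sums overlapped between genotypes.

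The remaining members of this role move coenzyme A and adenine nucleotides. Slc25a42, the mitochondrial coenzyme A carrier, gave 4.50, 4.16 and 4.46 in wild type and 4.52, 3.66 and 4.02 in knockout. Knockout replicate 1 was the highest array while the other 2 knockout arrays lay below all of wild type, and the difference was -0.31 (SE 0.24), 0.02 on slide 1 and -0.47 on slide 2. Without knockout replicate 1 it was -0.53 and without knockout replicate 2 -0.10. Slc25a17, the peroxisomal carrier of coenzyme A and related nucleotides, differed by 0.08 (SE 0.15). The 9 tested members of this role held 6 differences above 0 and 3 below, with a median of 0.07.

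**Figure D2:**
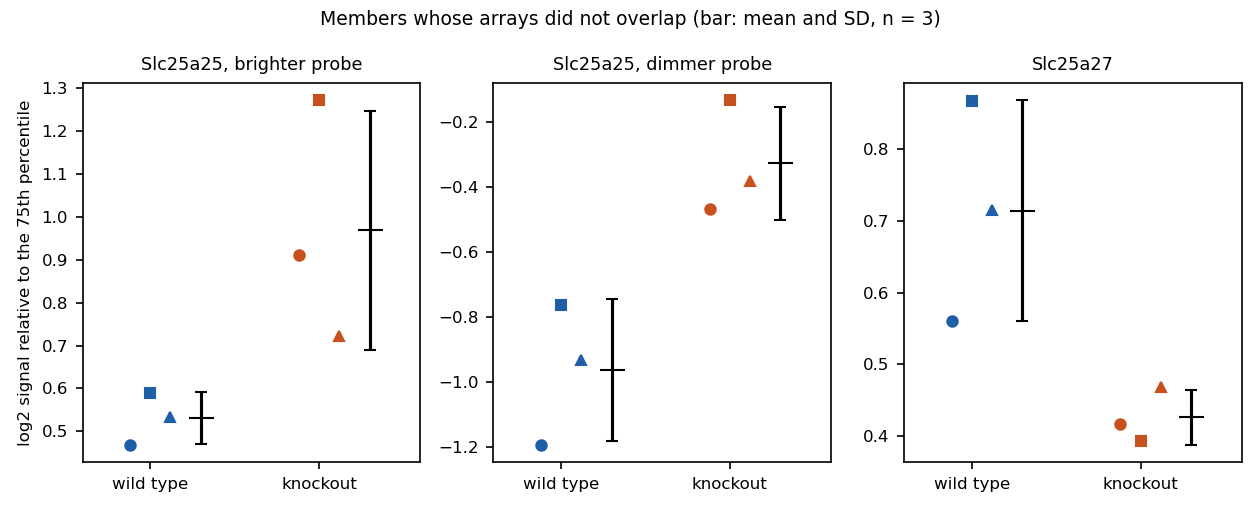
Log2 signal, scaled by the 75th percentile, for the 2 carriers whose genotypes did not overlap; Slc25a25 is drawn for both of its probes, symbols are single arrays (blue wild type, orange H19 knockout), and bars give the mean and SD (n = 3 each). The brighter Slc25a25 probe reads 0.47 to 0.59 in wild type and 0.72 to 1.27 in knockout; Slc25a27 reads 0.56 to 0.87 and 0.39 to 0.47, a difference that turns to 0.13 under median scaling.

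Carriers of keto acids and amino acids form the malate-aspartate shuttle and feed the citric acid cycle. The oxoglutarate-malate carrier Slc25a11 gave 7.54, 7.42 and 7.66 in wild type and 7.69, 7.25 and 7.55 in knockout, a difference of -0.04 (SE 0.17). Its partners, the calcium-regulated aspartate-glutamate carriers Slc25a12 (aralar, of heart and brain) and Slc25a13 (citrin, of liver), differed by -0.01 (SE 0.20) and by 0.0010 (SE 0.22). All 3 overlapped between genotypes, and in each knockout replicate 1 was the highest and knockout replicate 2 the lowest of the 6 arrays.

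The shuttle carriers showed that order in full. Slc25a12 gave 6.03, 5.87 and 6.15 in wild type and 6.29, 5.64 and 6.07 in knockout, and Slc25a13 gave 4.76, 4.79 and 5.17 against 5.25, 4.56 and 4.91. Their differences were 0.25 and 0.49 on slide 1 and -0.15 and -0.24 on slide 2, so the near-zero differences over 3 arrays each are means of opposite ones. The citrate carrier Slc25a1, which exports citrate for fatty acid synthesis, differed by 0.08 (SE 0.19), and the dicarboxylate carrier Slc25a10, well above background on 1 wild-type and 3 knockout arrays, by 0.28 (SE 0.18). With normexp background correction these became -0.0094 and -0.06. Slc25a10 became 0.72 after quantile normalization and 0.73 with the authors' deposited values.

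Slc25a20 brings acylcarnitines into the matrix and is the carrier step of fatty acid oxidation. It gave 2.41, 2.68 and 2.81 in wild type and 2.76, 2.16 and 2.48 in knockout, overlapping, with a difference of -0.17 (SE 0.21), 0.34 on slide 1 and -0.42 on slide 2. It ran from -0.31 to -0.013 as arrays were left out in turn, the latter without knockout replicate 2. Slc25a22, a glutamate carrier, gave -0.28, -0.22 and -0.43 in wild type and -0.49, -1.03 and -0.34 in knockout. Knockout replicate 2 stood below the other 5 arrays, the genotypes overlapped, and the difference was -0.30 (SE 0.21), or -0.10 without that array. Slc25a18, the other glutamate carrier, was too dim to be set beside it, as were the ornithine carriers Slc25a15 and Slc25a2.

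The other amino acid carriers gave smaller values. Slc25a29, which carries basic amino acids, differed by -0.12 (SE 0.20); Slc25a38, which carries glycine for haem synthesis, by 0.06 (SE 0.17); and Slc25a44, which carries branched-chain amino acids, by -0.09 (SE 0.19). Slc25a45 differed by 0.08 (SE 0.31). Over the 8 tested members of the amino acid and carnitine role, 3 differences were above 0 and 5 below, with a median of -0.05, close to that of all genes.

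Relatives of the uncoupling proteins were 3 members, of which Slc25a27 (UCP4), best known from the brain, was the other carrier whose genotypes did not overlap. It gave 0.56, 0.87 and 0.72 in wild type and 0.42, 0.39 and 0.47 in knockout. All 3 knockout arrays lay below the wild-type arrays, in 1 of 36 carriers against 8.36% of all genes, and the difference was -0.29 (SE 0.15, adjusted p = 0.671, limma, n = 3 each). Within slides it gave -0.14 (slide 1) and -0.36 (slide 2). Under median scaling it gave 0.13, where all genes had a median of 0.37. Slc25a14 (UCP5) differed by -0.05 (SE 0.15) and Slc25a30 by -0.10 (SE 0.26).

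Taking both directions together, 2 of the 36 carriers (5.56%) did not overlap, against 2289 of all genes (10.5%). The share among carriers was no higher than among all genes.

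Carriers of cofactors, nucleotides and metals included 10 tested members. The glutathione carriers are Slc25a39 and Slc25a40. Slc25a40 gave 0.76, 1.10 and 1.28 in wild type and 1.46, 1.07 and 1.49 in knockout, a difference of 0.30 (SE 0.20) with knockout replicate 2 inside the wild-type range; its dimmer second probe was below the limit for testing. Slc25a39 differed by -0.0038 (SE 0.16).

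The mitoferrins import iron for haem and iron-sulphur clusters, Slc25a37 chiefly in red cell precursors and Slc25a28 in other tissues. Slc25a37 gave 2.10, 1.59 and 1.97 in wild type and 1.89, 2.01 and 1.58 in knockout (difference -0.06, SE 0.20), and Slc25a28 gave 2.30, 2.44 and 2.61 against 2.57, 2.16 and 2.16 (difference -0.15, SE 0.18). Taken as Slc25a37 minus Slc25a28, wild-type replicate 1 (-0.20) and knockout replicate 2 (-0.14) stood above the other 4 arrays, which lay between -0.85 and -0.58. The same 2 arrays had the highest erythroid medians, 2.38 and 3.05, against -2.40 to -0.34 on the others; the part of red cells in the balance was not tested.

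Slc25a33 and Slc25a36 carry pyrimidine nucleotides for mitochondrial DNA and RNA. Slc25a33 differed by -0.19 (SE 0.28), with wild-type replicate 2 the highest array at 4.60, and its second probe gave -0.25 (SE 0.36). Slc25a36 differed by 0.01 (SE 0.19). Slc25a26 differed by 0.02 (SE 0.22) and Slc25a32, linked to flavin and folate, by 0.11 (SE 0.15). Slc25a16, linked to coenzyme A, differed by 0.04 (SE 0.31). The 10 tested members of this role held 6 differences above 0 and 4 below, with a median of 0.01. On slide 1, 9 of the 10 were above 0, and on slide 2, 3 were.

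Members outside these roles were Slc25a46, an outer membrane protein of mitochondrial dynamics, with 0.01 (SE 0.18), and Slc25a34 and Slc25a35, whose substrates are not settled, with -0.10 (SE 0.21) and 0.08 (SE 0.18). Slc25a34 was among the brighter probes, at 6.73 ± 0.13 in wild type and 6.63 ± 0.35 in knockout (SD, n = 3 each).

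Of the 8 carriers with 2 probes, Slc25a25, Slc25a33 and Slc25a44 had differences of the same sign at both. In Slc25a3, Slc25a26, Slc25a37, Slc25a40 and Slc25a46 the signs differed, with -0.06 to 0.30 at the brighter and -0.25 to 0.0098 at the dimmer probe. The widest of these gaps was in Slc25a40, whose dimmer probe was not tested.

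**Figure D3:**
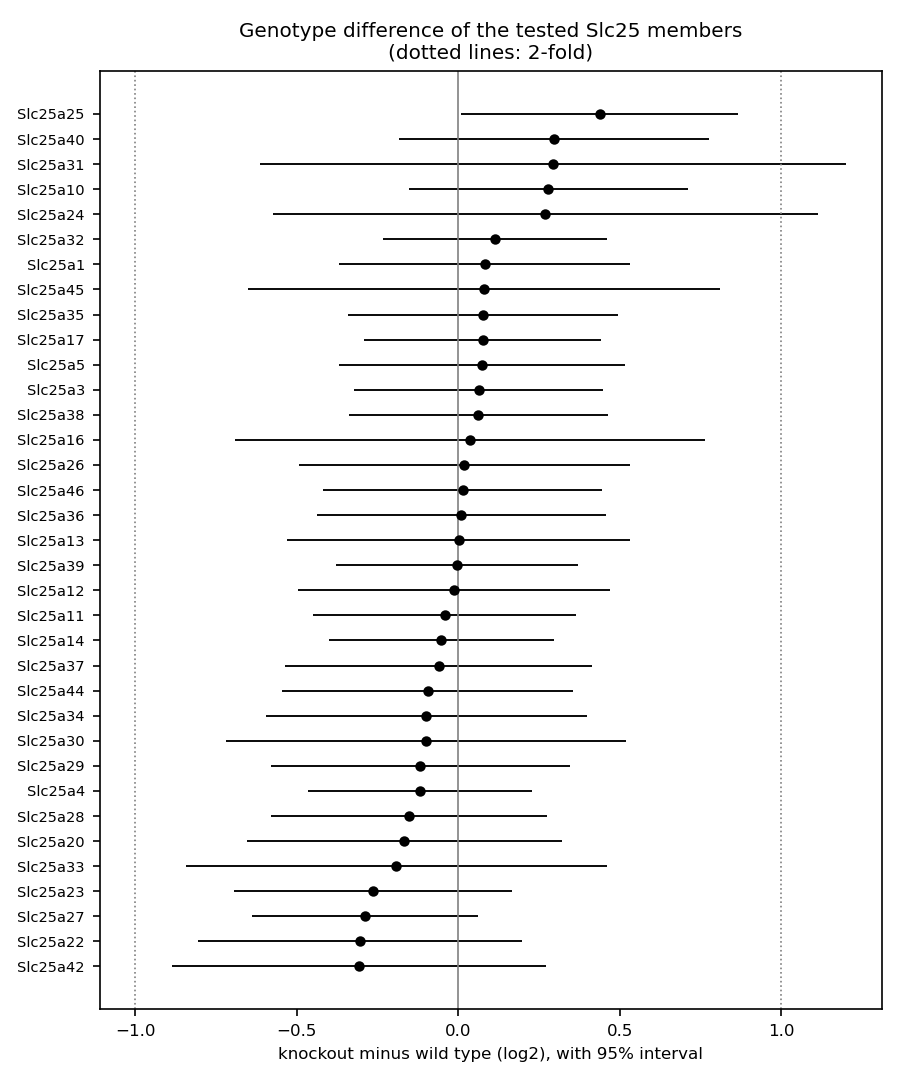
Fitted log2 difference, knockout minus wild type, with its 95% interval (horizontal axis) for 35 tested carriers, ordered by the difference, with dotted lines at a 2-fold change. The interval leaves out 0 in Slc25a25 alone (0.0099 to 0.87), whose adjusted p was 0.628; under median scaling every difference moves above 0.

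Isoforms that carry the same substrate were set against each other within each array, which removes whatever scales an array as a whole. Of the 5 pairs computed, Slc25a4 minus Slc25a5 was 2.60, 2.56 and 2.44 in wild type and 2.12, 2.45 and 2.46 in knockout, a difference of -0.19 (exact permutation p = 0.3, two-sided, and 0.9 adjusted over the 5 pairs). Differences for the other pairs were -0.02 for Slc25a12 minus Slc25a13, 0.09 for Slc25a37 minus Slc25a28, -0.53 for Slc25a23 minus Slc25a24 and -0.20 for Slc25a33 minus Slc25a36, with exact permutation p between 0.4 and 0.9. Slc25a4 minus Slc25a5 was -0.05 after quantile normalization, and Slc25a23 minus Slc25a24 was -0.97 without knockout replicate 1 and -0.21 without knockout replicate 2. All 5 overlapped between genotypes, and 3 arrays against 3 cannot give an exact p under 0.10. Probe letters set the level of such a balance, so only its difference between arrays can be read.

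The level of the carriers as a set was also read on each array. With each gene centred on its own mean, their median was -0.0044, -0.05 and 0.08 in wild type and 0.18, -0.18 and -0.03 in knockout. Knockout replicate 1 was the highest and knockout replicate 2 the lowest array, and the SD of the knockout arrays exceeded that of wild type in 24 of 36 carriers (66.7%) against 50.7% of all genes. The 12 cardiomyocyte markers gave -0.0094, 0.07 and 0.07 in wild type and 0.15, -0.20 and 0.01 in knockout, and the 16 import machinery genes -0.12, -0.11 and 0.16 against 0.22, -0.24 and 0.04. In both of those lists too, knockout replicate 1 was highest and knockout replicate 2 lowest. All genes had their lowest median on knockout replicate 2 as well (-0.11). Their median was -0.06 on knockout replicate 3, 0.03 on knockout replicate 1 and 0.01 to 0.04 in wild type. Knockout replicate 2 was also the array with the highest fibroblast and erythroid medians. The part of these in the carriers' levels was not tested.

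**Figure D4:**
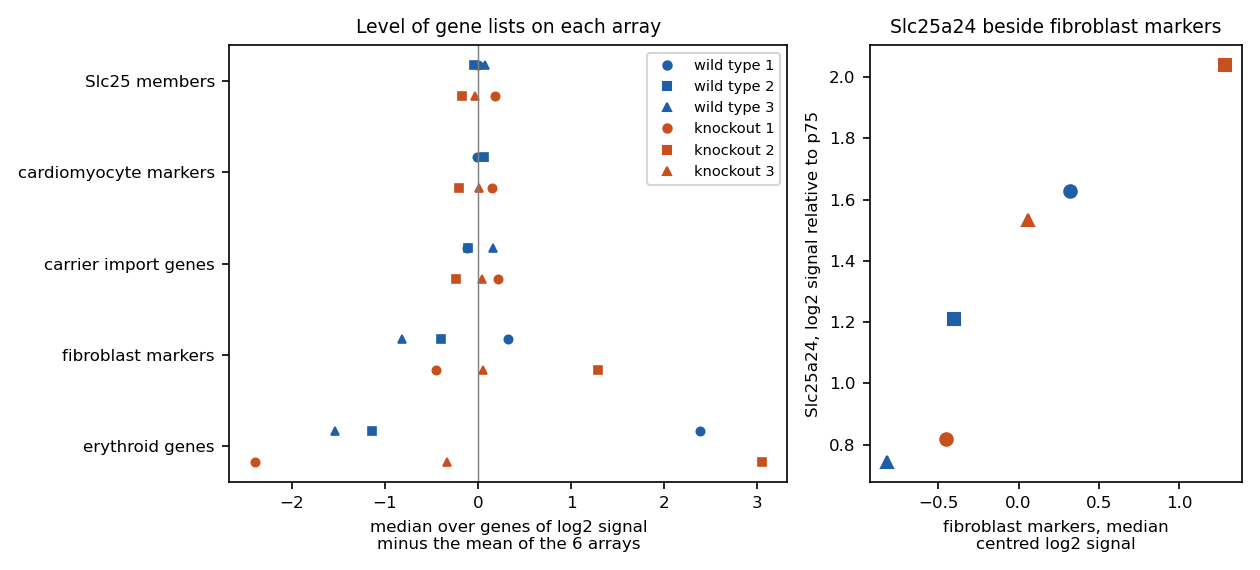
Left: median over genes of the centred log2 signal (gene mean subtracted), for the carriers and 4 other gene lists. Right: Slc25a24 signal against the fibroblast marker median. Blue symbols are wild-type and orange symbols knockout arrays. Carriers, cardiomyocyte markers and import genes are highest on knockout replicate 1 and lowest on knockout replicate 2, and Slc25a24 is lowest and highest on the arrays where fibroblast markers are (0.74 and 2.04).

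The slides gave different directions. On slide 1, 24 of 36 carriers were higher in knockout and the median difference was 0.19; on slide 2, 11 were higher and the median was -0.10. All genes had medians of 0.0008 and -0.12, with 10956 and 6575 of 21888 above 0, so the carriers' share (66.7% and 30.6%) stood above that of all genes on slide 1 and near it on slide 2. The 2 slides had opposite signs in 25 carriers (69.4%), against 56.0% of all genes, and 19 (52.8%) were above 0 on slide 1 and below 0 on slide 2, against 8319 of the 21888 genes. Slide 1 holds 1 array of each genotype, so its values have no replicate. Whether the slide itself, the preparation of those samples or the mice differed cannot be told apart.

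**Figure D5:**
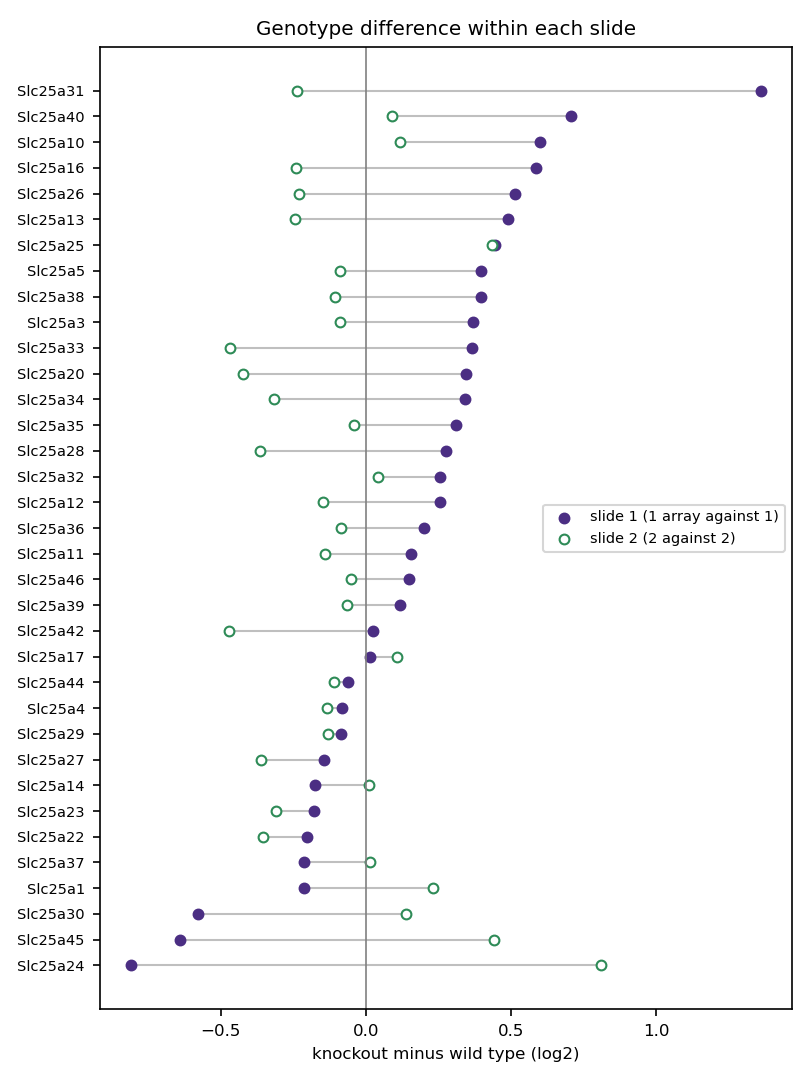
Log2 difference, knockout minus wild type, of 35 tested carriers on slide 1 (filled symbols, single arrays) and slide 2 (open symbols, pairs of arrays). The 2 points of a carrier lie on opposite sides of 0 in 24 of the 35, and Slc25a25 has 0.44 on both slides.

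Family members with other names were followed as a list. The 5 listed (Ucp1, Ucp2, Ucp3, Mtch1 and Mtch2) were tested, none passed, and 1 difference was above 0 and 4 below, with a median of -0.16. Ucp3, the uncoupling protein of muscle, gave -0.33, -0.08 and -1.01 in wild type and -1.09, -0.61 and -1.09 in knockout, a difference of -0.46 (SE 0.28), with overlap. It was -0.95 with the mean of its probes, -0.03 under median scaling, and -0.26 to -0.72 with 1 array left out, the extremes without wild-type replicates 2 and 3. Ucp1, of brown fat, was well above background on 2 arrays of each genotype and differed by -0.29 (SE 0.24), or by 0.15 with quantile normalization and 0.13 under median scaling. A RefSeq table gives current Slc25 names to further probes outside the rule. Those of Slc25a47 and Slc25a51 were well above background on all 6 arrays, with differences of 0.07 (SE 0.17) and -0.02 (SE 0.16); a second, dimmer Slc25a51 probe gave 0.11. Those of Slc25a48, Slc25a53 and Slc25a54 were not well above background on any array.

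Among 20 tested inner membrane transporters of other families, none passed, 6 differences were above 0 and 14 below, and the median was -0.03. Both with an unadjusted p under 0.05 were lower in knockout, where 6.83% of all genes were. Micu3, a regulator of the mitochondrial calcium uniporter, gave -2.80, -3.30 and -3.28 in wild type and -3.99, -4.10 and -3.87 in knockout, where it was well above background on 1 of 3 arrays. The groups did not overlap, and the difference was -0.86 (SE 0.19, adjusted p = 0.616, limma), -1.18 on slide 1 and -0.69 on slide 2. At this dim probe the difference was -0.41 to -0.47 with normexp correction, quantile normalization, median scaling or the authors' deposited values. Sfxn2, a sideroflexin linked to iron, gave 0.20, 0.10 and 0.63 against -0.46, -0.04 and -0.10, a difference of -0.51 (SE 0.21, adjusted p = 0.628, limma), also without overlap. Under median scaling the Sfxn2 difference was -0.09 (SE 0.34). Mcu, the pore of the uniporter, was not among the genes tested.

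Channels, import machinery and partner enzymes were read next. The 3 outer membrane channels Vdac1, Vdac2 and Vdac3, through which metabolites reach the carriers, differed by 0.05 (SE 0.15), -0.05 (SE 0.15) and 0.06 (SE 0.17). None of the 16 genes that import carriers into the inner membrane passed, 7 differences were above 0 and 9 below, and the median was -0.0037; Timm22, the channel of the carrier translocase, had 0.22 (SE 0.19) and Tomm6 0.13 (SE 0.17). None of the 13 enzymes and transporters listed as partners of the carriers passed, with 4 differences above 0 and 9 below and a median of -0.07. Among these, Slc22a5, which takes carnitine into the cell, had -0.31 (SE 0.20), and Acly, which cleaves exported citrate, 0.30 (SE 0.20).

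Promoters were searched on both strands for 3 motifs, none of which contains another, in windows of 300 bases around the start site, from a RefSeq table of GRCm38.p6 that matched 32 of the 42 carriers with 41 promoters. The cyclic AMP response element TGACGTCA was in 2 of 41 (4.88%), those of Slc25a25 and Slc25a36, against 1.79% of all 32851 promoters; it is shown because 1 of them belongs to the carrier with the widest difference.
Slc25a25, chr2:32424198-32424227, minus strand, GRCm38.p6: tctgcaagcagTGACGTCAgtcctgatctt
Slc25a36, chr9:97111184-97111213, minus strand, GRCm38.p6: tgcgaacctcgTGACGTCAcgcggcctaag
Capitals mark the motif. It begins 150 bases before the start in 1 of 3 promoters of Slc25a25 and 161 bases before it in Slc25a36, which differed by 0.44 and 0.01 between the genotypes. CCAAT was in 20 of 41 (48.8%) against 37.4%, and AAGGTCA, the half-site of the ERR receptors, in 1 (2.44%, Slc25a34) against 4.72%. The median GC content was 59.7% in carrier promoters and 52.7% in all. TGACGTCA contains a CG step, and the median count of CG was 15 in carrier promoters and 7 in all. The part of base composition in the motif shares was not tested.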

How the data were processed

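RNA of 6 samples was read on 1-colour Agilent arrays. Per the file headers, Agilent Feature Extraction 10.7.3.1 gave each spot a background-subtracted intensity, not normalized between arrays, and probe coordinates follow mm9. A second table that the authors deposited gives normalized spot intensity, with a median of 69.7 on each array. The flags for signal well above background are also per the file headers. Control and outlier spots were left out, spots of a probe averaged, and log2 intensity taken relative to each array's 75th percentile over probes. Probes well above background on at least 3 arrays were kept (29990), and each gene took its probe with the highest mean. Genotypes were compared with limma 3.58.1 (R 4.3.3, lmFit and eBayes) with Benjamini-Hochberg adjustment over 21888 genes. The procedure was tested on simulated arrays with independent noise, which held no effect of slide or scaling. Isoform pairs used an exact permutation test.

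The members, roles, lists and tests were chosen with earlier results of these data known. Named genes are H19, the 10 members with the smallest p, a panel of 13 carriers, the 2 of each list with the smallest p, and, chosen after their values were seen, other members given to complete a role. The values of 1 carrier and 1 marker are not reported here, though the counts and medians include the carrier. Alternatives are in the closing section.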

Additional observations from a re-analysis of the deposited data

How the results depend on the processing

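No carrier passed an adjusted p of 0.05 under any alternative run, and Slc25a25 stayed above 0 in all of them, from 0.22 to 0.86, with adjusted p from 0.388 to 0.89, and from 0.29 to 0.56 with 1 array left out. The number of genes called was 8 in the report, 3 with quantile normalization or the authors' deposited values, 118 with median scaling of the probes, 1 without a filter on dim probes, 1 with the replicate block or the slide as a block, 1267 with array weights, and 1 to 10 with 1 array left out. Carriers at an unadjusted p under 0.05 were 1 of 36 in the report (1729 of 21888 genes), 3 with quantile normalization (1271 genes), the deposited values (1277) or array weights (5525), 4 with median scaling (1803), 0 with the replicate block (2111) or the slide as a block (2026), and 0 to 1 with 1 array left out. Without the filter the 1 such carrier was the dim Slc25a2. The labels do not say whether replicate numbers pair the samples. Deviations from the genotype mean had correlations of -0.22, -0.05 and 0.04 between same-numbered arrays, and of -0.27 to 0.33 between the others. With 3 arrays per genotype these cannot settle whether the samples are paired. Array weights ran from 0.42 to 6.79 and came from the gene-by-gene method, as the default did not converge; they called 1 gene of the lists, Micu3 (-0.73, adjusted p = 0.0433; over the other alternatives and arrays left out it stayed above 0.05).

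Signs were followed under all alternatives for the genes named by the rule, and for the other carriers under median scaling and quantile normalization. Median scaling turned all 17 carriers below 0. It moved the carriers' median to 0.43; among the genes followed, it turned Slc25a27 (0.13), Slc25a23 (0.16), Slc25a22 (0.12), Slc25a42 (0.11), Slc25a28 (0.27), Slc25a20 (0.25), Slc25a4 (0.30), Slc25a11 (0.38), Slc25a12 (0.41), Slc25a37 (0.36), Vdac2 (0.37), Ucp1 (0.13) and Slc22a5 (0.11). This scaling adds a shift to every gene by its construction. Normexp correction turned Slc25a10 (-0.058) and Slc25a1 (-0.0094), quantile normalization Slc25a13 (-0.023) and Ucp1 (0.15) and, outside the genes followed, Slc25a30 (0.09), Slc25a44 (0.23), Slc25a26 (-0.00024) and Slc25a46 (-0.0089), the deposited values Slc25a13 (-0.018) and Ucp1 (0.15), the mean of a gene's probes Acly (-0.063), and array weights Slc25a3 (-0.0034), Slc25a11 (0.052), Slc25a12 (0.11) and Vdac2 (0.011). The cause was not tested for these.

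With 1 array left out, signs turned in Slc25a1 (-0.046 to 0.18), Slc25a11 (-0.14 to 0.081), Slc25a12 (-0.16 to 0.16), Slc25a13 (-0.17 to 0.18), Slc25a3 (-0.029 to 0.14), Slc25a31 (-0.13 to 0.64), Slc25a37 (-0.21 to 0.063), Slc25a5 (-0.092 to 0.20), Vdac2 (-0.12 to 0.038) and Vdac3 (-0.048 to 0.14), and in the balances Slc25a12 minus Slc25a13 (-0.081 to 0.066), Slc25a33 minus Slc25a36 (-0.42 to 0.19) and Slc25a37 minus Slc25a28 (-0.071 to 0.27). With 2 arrays left in 1 genotype, the fit assumes that they vary like those of the other. The number of arrays and the dim spots limit what can be detected.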
